A study of Mus musculus with 12 samples.

Results

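The cadherin and protocadherin genes were examined for binding of the transcription factor ESRRB in mouse embryonic stem (ES) cells. They comprise 92 protein-coding genes of the RefSeq annotation of mm10 whose symbols are Cdh with a digit or start with Pcdh. The genes of the clusters Pcdha, Pcdhb and Pcdhg were counted as 1 locus each, which gave 38 loci. A region of the ESRRB count table belonged to a gene when that gene was its nearest protein-coding gene and the centre of the region lay inside the gene or within 100 kb of it. This gave 291 of 86201 regions at 37 loci, of which 25 lay at Cdh1, 6 at Cdh2 and 260 at the other loci. Cdh24 had no region.

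The study profiled ESRRB by ChIP-seq (chromatin immunoprecipitation followed by sequencing) in 3 libraries of the line NanogKO:Esrrb:Nanog (44JN) and in 3 libraries of the line NanogKO:Esrrb (44J), with an input library for each ChIP library. These lines are called with Nanog and without Nanog below. All 12 samples carry the cell line label N{delta}:cE:iN and the cell type label ESC, and all were grown untreated in serum with leukaemia inhibitory factor. The labels give a Nanog knockout in both lines and do not say how Esrrb or Nanog was supplied, nor whether separate cultures stand behind the 3 libraries of each line. The p-values thus reflect library-to-library spread, possibly technical spread alone. Chromatin had a single or a double fixation, which the labels do not tell apart by sample. The files used hold no expression values, so neither the Nanog status nor the cell type was checked against marker genes. Fold changes are with over without Nanog and are relative to the other regions of the same library.

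ESRRB is an orphan nuclear receptor that binds DNA at the extended half-site read as AAGGTCA, and NANOG is a homeodomain transcription factor; both belong to the regulatory network of naive pluripotency. Classical cadherins are calcium-dependent adhesion molecules that bind the same cadherin on the neighbouring cell and anchor to actin through catenins. E-cadherin, the product of Cdh1, holds the cells of ES colonies together, whereas N-cadherin, the product of Cdh2, is typical of neural and mesenchymal cells. Protocadherins share the extracellular cadherin repeats without the classical catenin-binding tail, and the clustered ones give single neurons distinct surface identities.

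Counts in regions totalled 6689166, 8382646 and 7834773 in libraries A, B and C with Nanog, against 2734338, 3600055 and 5193707 in libraries A, B and C without Nanog. Regions at cadherin and protocadherin genes took between 0.287% and 0.304% of these counts. Their median count per region was 39 to 51 with Nanog and 16 to 31 without Nanog, so weak regions are measured with more counting error in the line without Nanog. Signal is given as CPM, the count scaled to the size of the library by TMM, and "called" means an adjusted p under 0.05 in edgeR's quasi-likelihood test over all regions.

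RefSeq promoter windows, read here as the 250 bases before a start site, were at hand for 22 of the genes in 25 windows, and Cdh1 and Cdh2 were not among them. The windows of Cdh20, Cdh7, Pcdh7 and Cdh6 overlapped an ESRRB region. The windows of Cdh20 and Cdh6, type II classical cadherins of neural tissue and of kidney and neural tissue, are shown because both genes also hold some of the strongest regions of the family. Capitals mark the bases that the deposited ESRRB region covers, 5′ to 3′, in GRCm38.p6 (mm10).
Cdh20, chr1:104768270-104768519, plus strand: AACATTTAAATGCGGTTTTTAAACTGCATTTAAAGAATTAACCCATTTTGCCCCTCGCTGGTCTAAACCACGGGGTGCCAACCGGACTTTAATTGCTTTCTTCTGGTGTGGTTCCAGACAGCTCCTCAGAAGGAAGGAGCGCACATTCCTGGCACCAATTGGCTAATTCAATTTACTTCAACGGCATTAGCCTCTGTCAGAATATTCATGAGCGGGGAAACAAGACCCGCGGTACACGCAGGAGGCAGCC
Cdh6, chr15:13173676-13173925, minus strand: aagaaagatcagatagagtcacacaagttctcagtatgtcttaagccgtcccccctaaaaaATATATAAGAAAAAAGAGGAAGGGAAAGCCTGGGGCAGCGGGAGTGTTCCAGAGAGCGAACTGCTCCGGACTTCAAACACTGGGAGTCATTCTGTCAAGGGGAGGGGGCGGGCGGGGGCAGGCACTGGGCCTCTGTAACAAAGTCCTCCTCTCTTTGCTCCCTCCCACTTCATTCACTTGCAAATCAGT
The region covered all 250 bases at Cdh20 and 189 bases at Cdh6. The GC content was 47.6% with 10 CpG at Cdh20 and 51.2% with 6 CpG at Cdh6. Neither promoter region was called, with a log2 fold change of 0.03 (adjusted p = 0.93) at Cdh20 and 0.46 (adjusted p = 0.16) at Cdh6 by edgeR's quasi-likelihood test. The Cdh6 window precedes a start inside the gene, which spans 13028699 to 13176407. On the minus strand the upper end of that span is the 5′ end. Another region, 13176025 to 13176411, covers that end and was called lower (log2 fold change -0.998, edgeR adjusted p = 0.00257). The letters AAGGTCA, searched on both strands of windows of 300 bases around the start, occurred in 1 of 25 windows of these genes (4%), that of Cdh18, and in 4.72% of all 32851 promoter windows. The Cdh18 window overlapped no ESRRB region.

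With Nanog, 31 regions at cadherin and protocadherin genes had a higher ESRRB signal and 33 a lower one, among the 286 that passed the filter on low counts. The share called was 22.4%, against a background of 19.2% of all 84892 regions tested. By direction, 10.8% were higher and 11.5% were lower, against 9.42% and 9.78% of all regions. The median log2 fold change was -0.04 at these genes and -0.01 over all regions, so the family as a whole lay near the background. Changes of at least 2-fold were called in 18 higher and 8 lower regions, against 3720 higher and 1773 lower among all 84892 regions tested. Without Cdh1 and Cdh2, 26 regions were higher and 29 lower of 255. The libraries of the lines did not overlap at 100 of the 286 regions, 57 with Nanog above and 43 with Nanog below. Over all regions tested, 33.8% did not overlap, 17.0% with Nanog above and 16.8% below, so such separation was common. The 5 regions that did not pass the filter lay at Pcdhb9, Pcdh8, Cdh13, Cdh23 and Cdh22.

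The regions were weak to average in signal. Their median was 5.91 CPM with Nanog and 5.996 CPM without Nanog, against 6.59 and 6.82 CPM over all regions, and 26 of them lay in the top decile by mean signal. By position, 67.0% lay inside the gene and 7.56% within 1 kb of a gene end. The limit of 100 kb itself raises such shares, so the background is taken over the 77668 regions within 100 kb of a protein-coding gene, of which 48.2% lay inside a gene and 14.9% within 1 kb of an end. The inside regions held 26 of the higher and 15 of the lower calls among 192 tested, where the background was 10.9% higher and 8.75% lower. Those within 1 kb of a gene end held 1 higher and 4 lower calls among 21 tested, where the background was 3.82% higher and 4.76% lower. Regions farther than 1 kb from a gene held 4 of the higher and 14 of the lower calls among 73 tested, where the background was 9.24% higher and 12.4% lower. These positions are distances to the span of the gene, since the gene table used gives no strand.

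The deposited peak lists split the calls by direction, here as over all regions. Regions in the list of the line with Nanog alone made up 66.0% of those at cadherin and protocadherin genes (192 regions), against 61.4% of all regions. They gave 25 higher and 5 lower calls among 187 tested, against a background of 10.8% higher and 1.92% lower for this list. Regions in the lists of both lines made up 32.3% (94 regions), against 37.8% of all, and gave 6 higher and 24 lower calls, against a background of 7.40% and 20.8%. The 5 regions in the list of the line without Nanog alone gave 4 lower calls, where the background was 79.5% lower. The lists come from the same libraries as the counts, so membership and fold change are not independent.

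**Figure D1:**
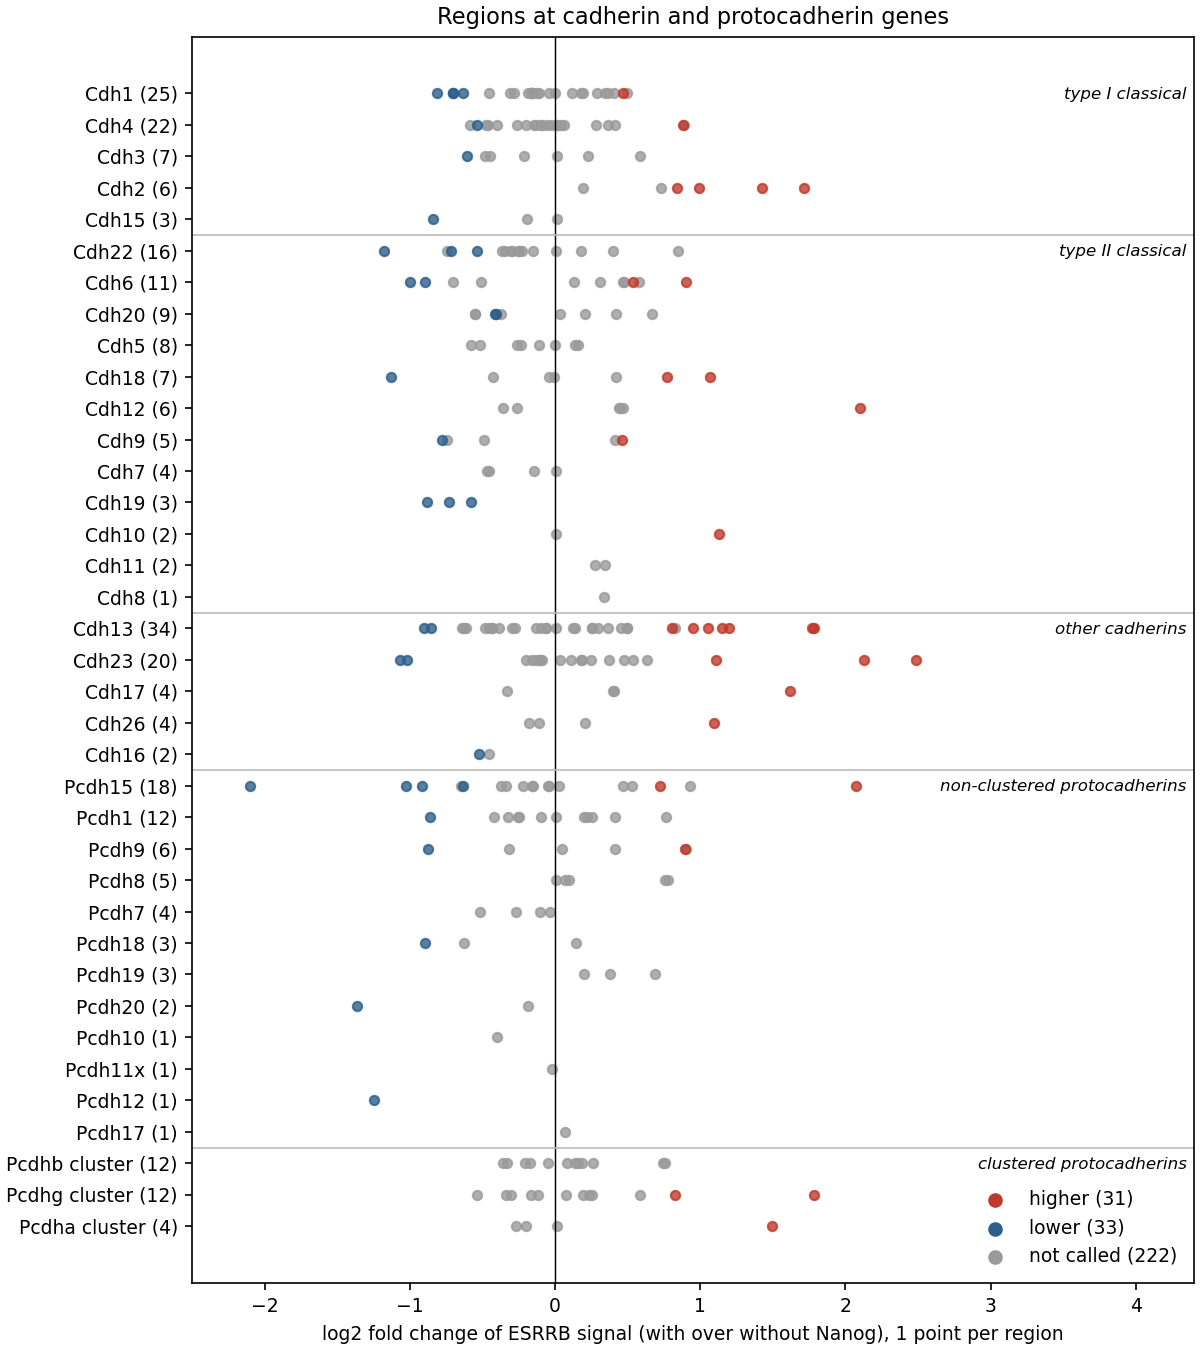
Log2 fold change of the ESRRB signal, with over without Nanog, for the 286 tested regions, 1 point per region and 1 row per locus with the number of tested regions in brackets. Red points are the 31 called higher, blue points the 33 called lower and grey points the 222 not called; Cdh2 lies to the right of 0, Cdh19 to the left, and most other loci spread to both sides.

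Cdh1 had 25 ESRRB regions, and 198 of 21900 protein-coding genes had more. The gene spans 106603350 to 106670247 on chromosome 8, and 21 of the regions had their centre inside it, which is 31.4 per 100 kb. With Nanog, 4 of these regions were lower, 1 was higher and 20 were not called. The share called, 20%, was near the background of 19.2%, and the median log2 fold change was -0.13. The regions were strong, with a median percentile of 82.8 among all regions by signal, and 14 of them were in the peak lists of both lines.

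The 4 lower regions of Cdh1 lay at 0.95 to 8.6 kb inside the gene from the end that faces Cdh3. Among them lay uncalled regions at 106605348 (-0.45), 106608520 (0.36) and 106609098 (0.11 on the log2 scale). At 106603685 to 106604923, signal was 38.5, 37.4 and 40.01 CPM in the libraries with Nanog and 52.6, 50.8 and 74.1 CPM in those without Nanog. The libraries did not overlap, and library C without Nanog stood above the others. Its log2 fold change was -0.63 ± 0.14 (SE), with adjusted p = 0.00123 by edgeR's quasi-likelihood test. At 106606685 to 106607408, signal was 22.9, 23.1 and 21.7 CPM with Nanog and 38.4, 34.8 and 37.3 CPM without Nanog, a log2 fold change of -0.70 ± 0.14 (edgeR adjusted p = 0.000667). At 106610865 to 106611457, it was 16.5, 14.9 and 16.1 CPM with Nanog and 28.0, 26.6 and 23.3 CPM without Nanog, a log2 fold change of -0.71 ± 0.16 (edgeR adjusted p = 0.00257). Within each line the libraries lay close together at both places and the lines did not overlap, but after thinning to equal totals the log2 fold change at 106610865 was -0.35 and the call was lost (edgeR adjusted p = 0.255). The fourth, 106611825 to 106612040, was weak, with 2.77, 2.36 and 2.68 CPM with Nanog and 4.10, 5.05 and 4.51 CPM without Nanog. Its log2 fold change of -0.82 ± 0.29 had an edgeR adjusted p of 0.042, and the call was lost when any of the 6 libraries was left out, at log2 fold changes of -0.86 to -0.74.

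The higher region of Cdh1 lay farther in, at 16.6 kb from the same end, at 106619396 to 106620428. Signal there was 44.2, 44.2 and 43.4 CPM with Nanog, against 26.1, 32.3 and 35.5 CPM without Nanog. All libraries with Nanog lay above all libraries without it, and its log2 fold change was 0.47 ± 0.14 with adjusted p = 0.0142 by edgeR. The call was lost without library B of the line with Nanog (0.47) and without library A of the line without Nanog (0.38), and after thinning to equal totals (0.39). Between the lower and higher regions lay the strongest region of the gene, 106614672 to 106616057, with 57.7, 57.0 and 61.3 CPM with Nanog and 56.7, 60.6 and 63.5 CPM without Nanog. The libraries of the lines overlapped there, with a log2 fold change of -0.04 ± 0.11 (edgeR adjusted p = 0.833).

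As shares of all Cdh1 counts, every called region also differed between the lines, with no overlap of libraries. These shares rest on the same counts as the calls. The region 106619396 to 106620428 held 10.4% ± 0.31 of all Cdh1 counts with Nanog and 6.68% ± 0.88 without Nanog (SD, n = 3 libraries each). The region 106606685 to 106607408 held 5.32% ± 0.28 with Nanog and 7.88% ± 0.56 without Nanog, and the region 106603685 to 106604923 held 9.11% ± 0.23 with Nanog and 12.6% ± 2.7 without Nanog. The region 106610865 to 106611457 held 3.73% ± 0.22 with Nanog and 5.57% ± 0.61 without Nanog. The weak region 106611825 to 106612040 held 0.614% ± 0.054 with Nanog and 0.973% ± 0.082 without Nanog. Shares did not overlap at other regions of the gene either, among them the strongest, 106614672 to 106616057, which was not called. That region held 13.8% ± 0.33 with Nanog and 12.9% ± 0.49 without Nanog. Summed over all 25 regions, Cdh1 had 471.9 ± 7.8 CPM with Nanog and 511.0 ± 18 CPM without Nanog (SD, n = 3 each). The summed log2 fold change of -0.12 ± 0.05 was not called (edgeR adjusted p = 0.131), although every library with Nanog lay below every library without it.

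**Figure D2:**
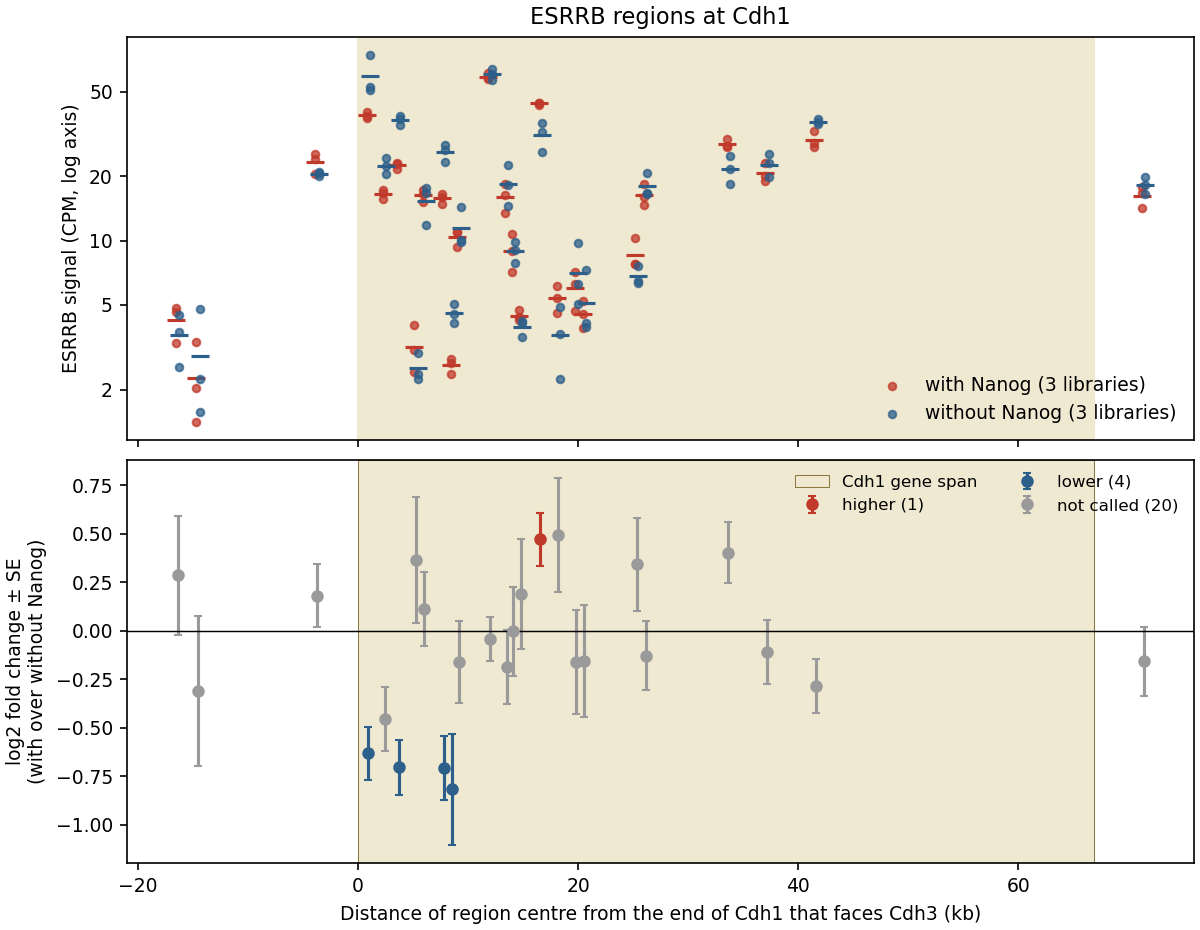
ESRRB signal (top, CPM on a log axis, 1 point per library and a bar at the mean) and log2 fold change with over without Nanog ± SE (bottom) for the 25 regions of Cdh1, by distance from the end of the gene that faces Cdh3 in kb; the shaded band is the gene. The 4 lower regions (blue) sit within 0.95 to 8.6 kb, with uncalled regions among them, and the higher region (red) sits at 16.6 kb. The strongest region at 12.0 kb shows overlapping libraries.

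Cdh2 had 6 regions, all of them in the peak list of the line with Nanog alone. The gene spans 16588877 to 16809246 on chromosome 18. With Nanog, 4 of the 6 regions were higher (66.7%, against a background of 9.42% of all regions higher), none was lower, and the median log2 fold change was 0.91. For all regions in that peak list the background was 10.8% higher and 1.92% lower. The list comes from the same libraries as the counts, so it is not independent of the direction of change. Without the multiple-testing adjustment 5 were higher and 0 lower at p under 0.05, and DESeq2 called 2 higher and 0 lower. All 6 rest on 65 to 173 counts per library in total without Nanog, against 310 to 468 with Nanog.

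The largest difference at Cdh2 was at 16713495 to 16713815, inside the gene, with 6.12, 6.37 and 5.99 CPM with Nanog and 1.86, 2.80 and 1.18 CPM without Nanog. Its log2 fold change was 1.71 ± 0.33 (edgeR adjusted p = 0.000446). At 16763156 to 16763408, also inside, signal was 4.23, 4.25 and 5.86 CPM with Nanog and 1.49, 2.52 and 1.37 CPM without Nanog, a log2 fold change of 1.43 ± 0.34 (edgeR adjusted p = 0.0037). Both calls held without any single library. At 16670103 to 16670460, signal was 9.48, 10.6 and 12.7 CPM with Nanog and 5.59, 8.13 and 4.90 CPM without Nanog, a log2 fold change of 0.84 ± 0.24 (edgeR adjusted p = 0.0152). At 16588614 to 16588877, which is 0.13 kb outside the gene, signal was 4.81, 4.72 and 4.33 CPM with Nanog and 2.61, 3.09 and 1.57 CPM without Nanog, a log2 fold change of 0.99 ± 0.32 (edgeR adjusted p = 0.0279). In these 4 regions all libraries with Nanog lay above all libraries without Nanog, as they did at 17.0% of all regions tested. Without library C with Nanog the call was lost at 16670103 (0.71) and at 16588614 (1.03), and without library C without Nanog at both too (0.66 and 0.69), so that 2 regions were called higher in either case. The call at 16588614 was also lost without library A (0.97) or library B (0.98) of the line with Nanog.

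The other 2 regions of Cdh2 were not called. The region 16490602 to 16490916 lay 98.1 kb outside the gene, with a log2 fold change of 0.73 ± 0.27 (edgeR adjusted p = 0.055). It gained a call in 5 of the 13 alternatives that tested it. The strongest, 16614347 to 16615038, had 12.7, 18.8 and 14.1 CPM with Nanog and 5.97, 26.6 and 7.45 CPM without Nanog. Library B without Nanog stood above all the others there and held 54.9% of its Cdh2 counts in that region. The log2 fold change was 0.19 ± 0.30 with all libraries (edgeR adjusted p = 0.703) and 1.16 without that library (edgeR adjusted p = 0.000282). Summed over the gene, Cdh2 had 55.8 ± 5.8 CPM with Nanog and 34.1 ± 17 CPM without Nanog (SD, n = 3 each), and the libraries of the lines overlapped. The summed log2 fold change was 0.74 ± 0.20 (edgeR adjusted p = 0.0105). It was 1.25 when library B without Nanog was left out, and the call was lost without library B with Nanog (0.65) and without library A (0.62) or C (0.44) without Nanog. DESeq2 gave 0.72 and did not call it (adjusted p = 0.218).

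**Figure D3:**
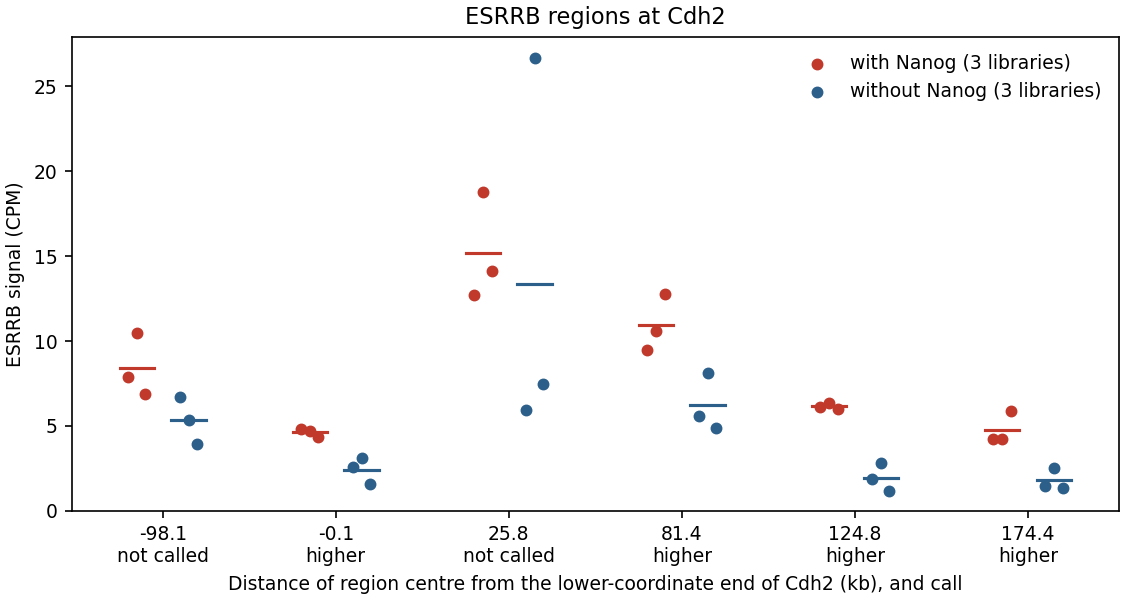
ESRRB signal in CPM at the 6 regions of Cdh2, ordered by distance of the region from the lower-coordinate end of the gene in kb, with 1 point per library and a bar at the mean. In the 4 regions called higher all points with Nanog lie above all points without it; at 25.8 kb, library B without Nanog lies at 26.6 CPM, above every other point.

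The other type I classical cadherins had few called regions. Cdh3, which encodes P-cadherin of placenta and epidermis and neighbours Cdh1, had 7 regions, of which 1 was lower, at -0.61 on the log2 scale. Its strongest region, 106509095 to 106512007 on chromosome 8, which spans the end of the gene that faces away from Cdh1, was among the 6 strongest of the family, with 80.3 ± 5.1 CPM with Nanog and 68.2 ± 9.2 CPM without Nanog (SD, n = 3 each). It was not called (log2 fold change 0.22, edgeR adjusted p = 0.179). A call was gained without library C of the line without Nanog (0.36), with a loess offset (0.34) and with a block by column letter (0.23). Cdh4, which encodes R-cadherin of retina, had 22 regions, all inside the gene, with 1 higher at 0.88 and 1 lower at -0.54 on the log2 scale. Cdh15, which encodes M-cadherin of muscle, had 3 regions with 1 lower.

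Type II classical cadherins, most of them expressed in the nervous system, gave 7 higher and 12 lower regions of 74 tested, which is 9.46% and 16.2% against 9.42% and 9.78% of all regions. Cdh6 held regions called in both directions. Inside the gene, at 13094773 to 13095893 on chromosome 15, signal was 62.6, 63.7 and 67.8 CPM with Nanog and 48.1, 39.8 and 45.9 CPM without Nanog. The libraries did not overlap, and the log2 fold change was 0.54 ± 0.12 (edgeR adjusted p = 0.00189). At 13211926 to 13212785, 35.9 kb outside, signal was 37.5, 43.9 and 48.3 CPM with Nanog and 23.5, 25.5 and 20.8 CPM without Nanog, a log2 fold change of 0.90. In contrast, the region 13176025 to 13176411 at the gene's upper end had 6.85, 5.31 and 6.75 CPM with Nanog and 9.32, 11.8 and 15.5 CPM without Nanog. The log2 fold change there was -0.998 ± 0.23 (edgeR adjusted p = 0.00257), and the call was lost without library C of the line without Nanog, at -0.75.

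Cdh12 carried the largest increase among type II genes. At 21366175 to 21366829 on chromosome 15, inside the gene, signal was 18.4, 17.7 and 20.8 CPM with Nanog and 7.08, 4.21 and 2.94 CPM without Nanog. Even the lowest library with Nanog was above the highest without Nanog, with a log2 fold change of 2.10 ± 0.25 (edgeR adjusted p = 5.33e-07). It was the 1 called region of the 6 at Cdh12. Cdh18, on the same chromosome, was higher at 2 regions and lower at 1. The lower region, 22544525 to 22544897, had 9.91, 8.96 and 10.3 CPM with Nanog and 11.9, 23.6 and 26.5 CPM without Nanog, a log2 fold change of -1.13 ± 0.21 (edgeR adjusted p = 0.000334), and lay 4.2 kb outside the gene. The larger increase at Cdh18, 1.07 at 22811910 to 22812257, lost its call without library B of the line with Nanog (0.97) and without library C of the line without Nanog (0.89). Cdh10 was higher at 1 of 2 regions, by 1.13, and that call was lost without library A (1.09) or C (1.05) of the line with Nanog and without library C of the line without Nanog (0.63).

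All 3 regions of Cdh19, a gene on chromosome 1 known from neural crest derivatives, were lower, against 9.78% of all regions. Of these, 2 were in the peak lists of both lines, where the background was 20.8% lower. The list of the line with Nanog alone held 1, where it was 1.92%. The strongest, 110903962 to 110904678 inside the gene, had 28.3, 31.6 and 30.2 CPM with Nanog and 51.1, 42.9 and 41.8 CPM without Nanog, with no overlap and a log2 fold change of -0.58 ± 0.13 (edgeR adjusted p = 0.00262). The region beside the gene end, 110977680 to 110977956, had 5.83, 4.13 and 5.10 CPM with Nanog and 11.9, 8.69 and 7.84 CPM without Nanog, a log2 fold change of -0.89 ± 0.25, and lost its call without library B of the line with Nanog (-0.76) and without library A of the line without Nanog (-0.71). After thinning to equal totals its log2 fold change was -0.46 and the call was lost (edgeR adjusted p = 0.347). The third lay 97.2 kb away, and its libraries overlapped between lines.

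Cdh20 held 2 of the 6 strongest regions of the family. The first, 105012572 to 105013775 on chromosome 1, lies 17.7 kb outside the gene. Signal was 61.8, 64.4 and 65.2 CPM with Nanog and 98.1, 67.9 and 89.4 CPM without Nanog. The lines did not overlap, but the libraries without Nanog were widely spread. The log2 fold change was -0.41 ± 0.12 (edgeR adjusted p = 0.0145), and the call was lost without library A (-0.38) or C (-0.43) of the line with Nanog and without library A (-0.30) or C (-0.35) of the line without Nanog. The other, 105094560 to 105095656, had 44.9 ± 4.3 CPM with Nanog and 59.3 ± 4.3 CPM without Nanog (SD, n = 3 each) and was lower by the same amount. That call was lost without library A (-0.35) or B (-0.38) of the line with Nanog and without library C of the line without Nanog (-0.34). Cdh22, a brain cadherin, was lower at 3 of 16 tested regions, most at 165254943 to 165255458 on chromosome 2, by -1.18 ± 0.24 on the log2 scale (edgeR adjusted p = 0.000792). Its signal there was 7.87, 4.84 and 7.39 CPM with Nanog and 18.6, 9.82 and 16.9 CPM without Nanog. Cdh5, which encodes VE-cadherin of endothelium, had 8 regions with none called by edgeR or DESeq2, and 0 higher and 1 lower at an unadjusted p under 0.05.

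The regions nearest to the distance limit of 100 kb, on either side of it, lay near 5 genes, and only Cdh20 had one on both sides. Just inside it lay the Cdh20 region above at 99.6 kb, a Cdh6 region at 99.4 kb (5.43 CPM with Nanog and 10.2 CPM without Nanog) and a Cdh9 region at 98.8 kb (41.4 CPM with Nanog and 29.6 CPM without Nanog). Just outside it lay regions near Cdh18 at 104.5 kb (3.49 CPM with Nanog and 3.50 CPM without Nanog), near Cdh26 at 107.3 kb (39.1 CPM with Nanog and 47.2 CPM without Nanog) and near Cdh20 at 108.1 kb (6.06 CPM with Nanog and 5.96 CPM without Nanog).

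The cadherins outside the classical types gave 12 higher and 5 lower regions of 64 tested, which is 18.8% and 7.81% against 9.42% and 9.78% of all regions. Cdh23 encodes one protein of the tip link of inner ear hair cells, and its partner in that link is encoded by Pcdh15. Both genes lie on chromosome 10, and both held a region with a large increase. At Cdh23, the region 60606658 to 60607665 had 29.0, 32.9 and 33.4 CPM with Nanog and 7.08, 4.77 and 5.49 CPM without Nanog. This was the largest increase of the family, with a log2 fold change of 2.48 ± 0.20 (edgeR adjusted p = 5.48e-10). A weaker region of the gene, 60456784 to 60457262, had 6.999, 7.43 and 6.63 CPM with Nanog and 1.86, 1.402 and 1.57 CPM without Nanog, a log2 fold change of 2.13 ± 0.33. Cdh23 also had 2 lower regions, of which 60471669 to 60472108 had 5.54, 3.89 and 5.22 CPM with Nanog and 10.4, 9.54 and 10.6 CPM without Nanog, a log2 fold change of -1.07 ± 0.24 (edgeR adjusted p = 0.00193). The libraries of the lines did not overlap at these 3 regions.

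Cdh13 encodes T-cadherin, which lacks the cytoplasmic tail and is held in the membrane by a lipid anchor. It had the most regions of the family, 35, of which 34 were tested, with 7 higher and 2 lower. The largest increase, at 118062633 to 118063059 on chromosome 8, lay 77.2 kb outside the gene, with 10.1, 11.7 and 12.6 CPM with Nanog and 2.24, 3.65 and 3.73 CPM without Nanog (log2 fold change 1.78 ± 0.27, edgeR adjusted p = 1.81e-05). A stronger region inside the gene, 118409214 to 118409768, had 30.6, 32.9 and 30.1 CPM with Nanog and 17.5, 17.95 and 13.7 CPM without Nanog. The lines did not overlap at either place. A region nearer to the gene than the first, 63.3 kb away, was lower, with 21.6, 20.9 and 22.8 CPM with Nanog and 36.9, 48.2 and 33.5 CPM without Nanog at 118076352 to 118077002 (log2 fold change -0.86 ± 0.15). The strongest region of Cdh13, 118777264 to 118777998, was not called, at 46.0 CPM with Nanog and 50.7 CPM without Nanog. Its other lower region, 118541664 to 118541840 (-0.90), lost its call without library A (-0.72) or C (-0.95) of the line with Nanog and without library A (-0.85) or C (-0.74) of the line without Nanog.

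Cdh17, the intestinal LI-cadherin, was higher at 1 of 4 regions, 11785761 to 11786019 on chromosome 4, with 4.37, 3.18 and 4.08 CPM with Nanog and 2.61, 0.841 and 0.784 CPM without Nanog. Its log2 fold change of 1.62 ± 0.39 was 1.26, and the call was lost, without library C of the line without Nanog. Cdh16, the kidney-specific cadherin, was lower at the region over its lower-coordinate end, 104601874 to 104602557 on chromosome 8, with 29.6, 28.1 and 31.0 CPM with Nanog and 38.8, 42.1 and 45.7 CPM without Nanog. No library of one line reached into the range of the other, and the log2 fold change was -0.52 ± 0.13 (edgeR adjusted p = 0.00583). Cdh26 was higher at 1 of 4 regions by 1.09, a call lost in 5 of the 6 fits that leave out a library, at 0.77 to 1.12.

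Non-clustered protocadherins gave 3 higher and 9 lower regions of 57 tested, which is 5.26% and 15.8% against 9.42% and 9.78% of all regions. At Pcdh15, the tip-link partner of Cdh23, the region 73508863 to 73509551 had 26.1, 31.6 and 35.2 CPM with Nanog and 7.08, 6.45 and 8.24 CPM without Nanog, a log2 fold change of 2.07 ± 0.19 (edgeR adjusted p = 1.04e-08). The same gene held the largest decrease of the family. At 74689378 to 74689589, 39.7 kb outside the gene and in the peak list of the line without Nanog alone, signal was 0.875, 1.30 and 2.42 CPM with Nanog and 7.83, 8.69 and 4.51 CPM without Nanog. The log2 fold change was -2.10 ± 0.34 (edgeR adjusted p = 4.87e-05). Of its 18 regions 2 were higher and 4 lower, and the lower ones lay on both sides of the higher ones.

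Pcdh20 was lower at 88413884 to 88414126 on chromosome 14, 50.7 kb from the gene, with 3.35, 2.48 and 4.08 CPM with Nanog and 8.58, 7.57 and 9.22 CPM without Nanog (log2 fold change -1.37 ± 0.27, edgeR adjusted p = 0.000471). The region at Pcdh12, which encodes an endothelial protocadherin, had 3.21, 3.42 and 2.93 CPM with Nanog and 5.59, 6.73 and 9.61 CPM without Nanog, a log2 fold change of -1.25 ± 0.27. It lies inside Rnf14 as well, so it cannot be given to Pcdh12 alone. Pcdh1 was lower at 1 of 12 regions, 38141463 to 38142036 on chromosome 18, with 17.2, 15.3 and 20.8 CPM with Nanog and 33.2, 28.3 and 35.3 CPM without Nanog. None of these 3 regions had overlapping libraries. Pcdh18 was lower at 1 of 3 regions by -0.90, a call lost without library B (-0.61) or C (-0.99) of the line with Nanog and without library A (-0.76) or C (-0.90) of the line without Nanog. Pcdh8, which encodes paraxial protocadherin of the early mesoderm, had 6 regions with none called among the 5 tested by edgeR or DESeq2, and 2 higher and 0 lower at an unadjusted p under 0.05.

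The clustered protocadherins on chromosome 18 had 29 regions, most of them weak, with a median of 4.78 CPM with Nanog and 4.50 CPM without Nanog. Of 28 tested, 3 were higher and none lower, and the higher share of 10.7% was near the 9.42% of all regions (9.78% of which were lower). Without the adjustment 5 were higher and 0 lower at p under 0.05, and DESeq2 called 2 higher and 0 lower. In the Pcdhg cluster, 37800828 to 37801226 had 8.02, 13.4 and 13.3 CPM with Nanog and 2.98, 5.05 and 2.35 CPM without Nanog, a log2 fold change of 1.78 ± 0.30 (edgeR adjusted p = 7.26e-05). In the Pcdha cluster, 37165554 to 37165919 had 4.81, 7.67 and 7.39 CPM with Nanog and 1.86, 1.68 and 3.14 CPM without Nanog, a log2 fold change of 1.49 ± 0.32 (edgeR adjusted p = 0.00139). Library A was the lowest of the line with Nanog in both, and the lines did not overlap. None of the 12 tested regions of the Pcdhb cluster was called by edgeR or DESeq2, and 2 were higher and 0 lower at an unadjusted p under 0.05. The genes of the Pcdha and Pcdhg clusters overlap and share their last exons, so a region there was assigned to the cluster and not to one of its genes. Pcdhb genes lie apart from one another and were grouped in the same way.

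**Figure D4:**
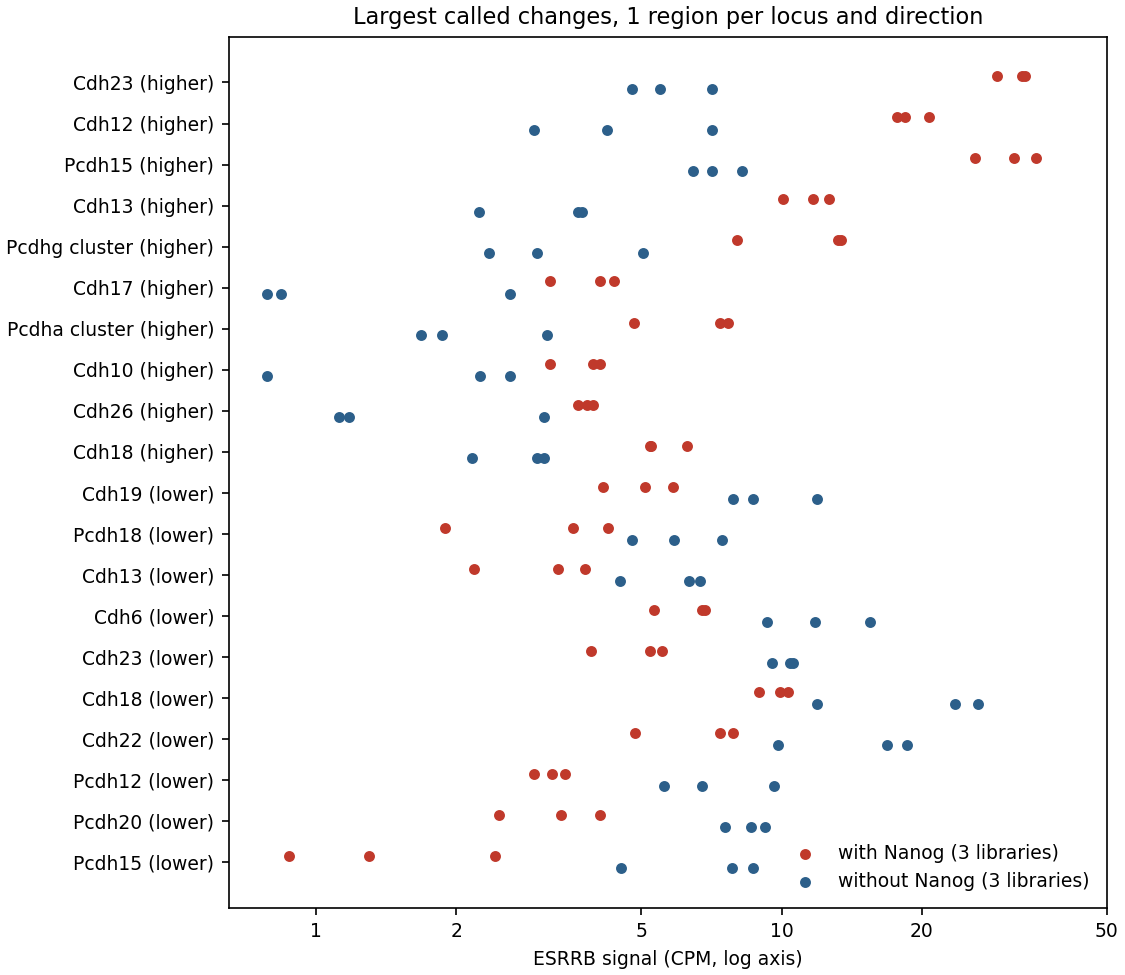
ESRRB signal in CPM on a log axis at the called regions with the 10 largest increases and the 10 largest decreases, 1 region per locus and direction, leaving out Cdh1 and Cdh2; each point is 1 library. In each of the 20 rows the red points with Nanog and the blue points without Nanog occupy separate ranges, as they did at 33.8% of all regions tested.

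Counts summed over the regions of a locus gave 1 value per locus and library. Of 36 loci tested 6 were higher and 3 lower, a share of 25% against a background of 23.8% of 15979 genes, with a median log2 fold change of 0.05 against -0.01. The higher loci besides Cdh2 were Cdh12, Cdh23, Pcdh19, Cdh17 and Cdh6. Cdh12 had 48.6 ± 1.9 CPM with Nanog and 31.0 ± 3.9 CPM without Nanog (SD, n = 3 each), a log2 fold change of 0.66 ± 0.13 (edgeR adjusted p = 0.000698). Pcdh19, an X-linked gene whose loss causes epilepsy in humans, had 46.9 ± 2.3 CPM with Nanog and 35.3 ± 0.87 CPM without Nanog and was higher by 0.41 ± 0.12 although none of its 3 regions was called on its own by edgeR or DESeq2, with 2 higher and 0 lower at an unadjusted p under 0.05. Its call was lost without library B of the line with Nanog, at 0.38. Cdh17 was higher by 0.40, and this call was lost in each of the fits without library A (0.36), B (0.42) or C (0.42) of the line with Nanog and without library A (0.43) or C (0.33) of the line without Nanog.

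The lower loci were Pcdh20, Cdh19 and Cdh16. Pcdh20 had 5.84 ± 0.87 CPM with Nanog and 11.8 ± 0.32 CPM without Nanog (SD, n = 3 each), a log2 fold change of -1.01 ± 0.21 (edgeR adjusted p = 0.00137). Cdh19 had 46.1 ± 4.1 CPM with Nanog and 71.3 ± 5.1 CPM without Nanog, a log2 fold change of -0.62 ± 0.11, and Cdh16 had 35.6 ± 1.8 CPM with Nanog and 49.8 ± 3.7 CPM without Nanog, a log2 fold change of -0.50 ± 0.12. All libraries with Nanog lay below all libraries without Nanog at these 3 loci. Leaving out library B gave 3 higher loci where it was that of the line with Nanog, and 5 lower loci where it was that of the line without Nanog. Among loci with several called regions in both directions, the sum was not called at Cdh13 (0.06 ± 0.08 on the log2 scale) and Pcdh15 (0.07 ± 0.07), and was higher at Cdh23 (0.41 ± 0.09) and Cdh6 (0.36 ± 0.07).

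**Figure D5:**
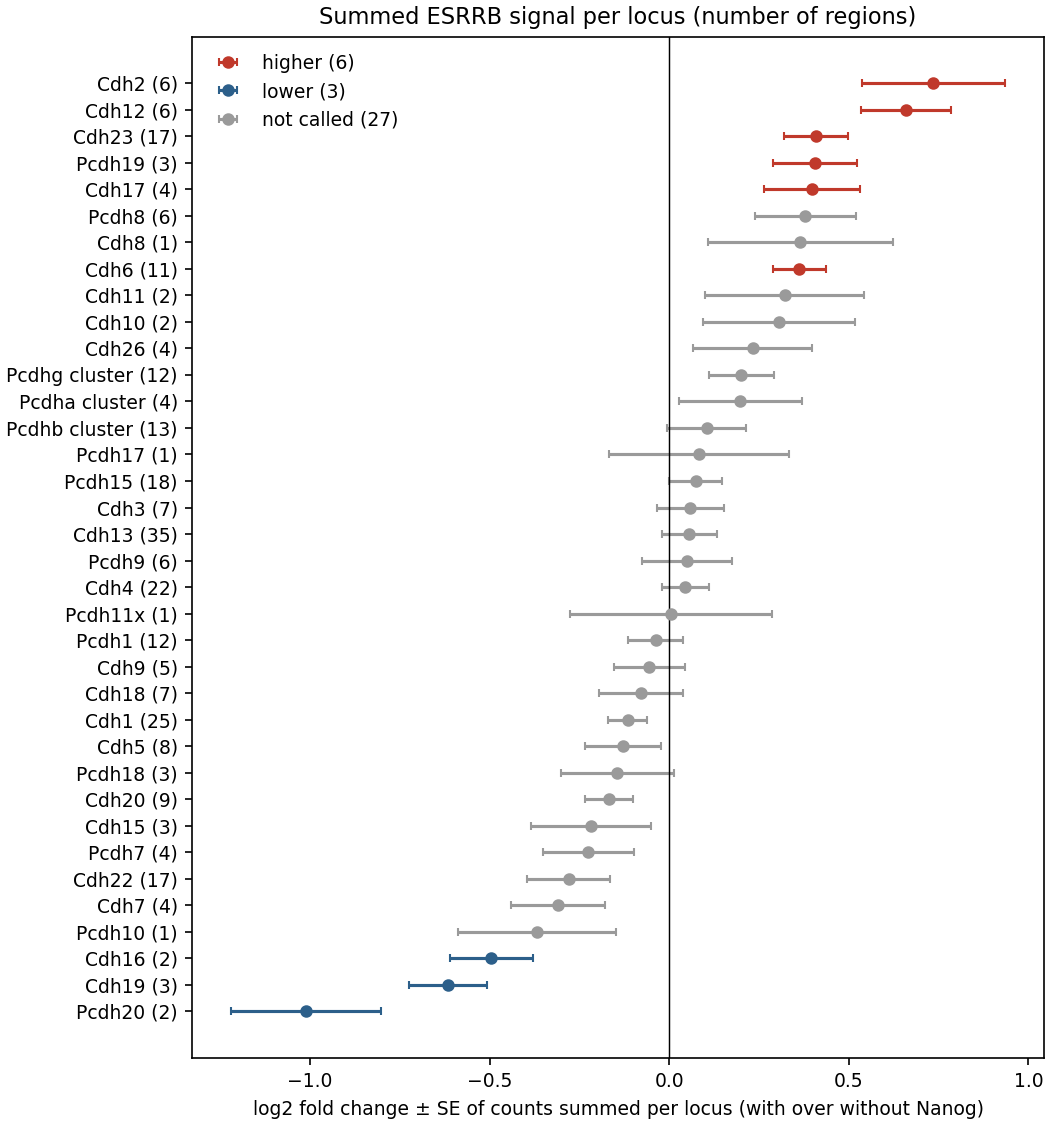
Log2 fold change, with over without Nanog, ± SE of the counts summed per locus, for the 36 loci tested, with the number of regions in brackets. Red loci were called higher (6), blue loci lower (3) and grey loci were not called (27); Cdh2 at 0.74 and Pcdh20 at -1.01 mark the ends.

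Partners of the cadherins were read from a list of 52 genes, of which 48 had a region. Their 346 tested regions gave 37 higher and 20 lower calls, 16.5% against the background of 19.2%, with a median log2 fold change of 0.02. By direction, 10.7% were higher and 5.78% lower, against 9.42% and 9.78% of all regions, which is also the background for the subgroups below. Catenin and plaque genes gave 22 higher and 11 lower of 170, nectins 1 and 3 of 30, desmosomal cadherins 1 and 0 of 31, other genes with cadherin repeats 9 and 4 of 89, and transcriptional repressors of E-cadherin 4 and 2 of 26. For the desmosomal cadherins DESeq2 also called 1 and 0, and 1 and 3 passed an unadjusted p under 0.05.

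For the partners that follow, values are those of the strongest region of the gene. At Ctnnb1, which encodes β-catenin, it had 11.2, 12.3 and 10.8 CPM with Nanog and 22.7, 17.4 and 17.8 CPM without Nanog, a log2 fold change of -0.74 ± 0.19 (edgeR adjusted p = 0.00542), 6.2 kb outside the gene. At Jup, which encodes plakoglobin of desmosomes and adherens junctions, it had 52.6, 43.8 and 53.0 CPM with Nanog and 82.4, 67.6 and 79.0 CPM without Nanog, a log2 fold change of -0.62 ± 0.12. Neither had overlapping libraries, and both genes also held higher regions, 1 at Ctnnb1 and 2 at Jup. At Plekha7, a plaque protein that binds p120-catenin, it was higher, with 53.1, 62.9 and 51.6 CPM with Nanog and 36.9, 33.1 and 30.2 CPM without Nanog (log2 fold change 0.76 ± 0.13, edgeR adjusted p = 0.000146). At Fat1, a giant cadherin, it was lower, with 93.8, 90.3 and 93.6 CPM with Nanog and 133.9, 127.3 and 114.1 CPM without Nanog (log2 fold change -0.43 ± 0.10). At Nectin4, a cell adhesion protein of adherens junctions, it was lower, with 7.73, 8.26 and 9.68 CPM with Nanog and 14.5, 13.5 and 16.1 CPM without Nanog (log2 fold change -0.79 ± 0.20). The single region of Cdhr3, a cadherin-related gene, was higher, with 4.08, 4.25 and 3.31 CPM with Nanog and 1.12, 1.96 and 1.18 CPM without Nanog (log2 fold change 1.45 ± 0.36). None of these 3 had overlapping libraries. Fat1 also held 1 higher region, and its summed log2 fold change of -0.11 was not called (edgeR adjusted p = 0.235). The strongest regions of Ctnnd1, Afdn, Nectin3, Dsc1 and Dsg1c were not called, although Ctnnd1 had 2 higher and 2 lower regions elsewhere and Afdn and Nectin3 1 higher region each. That at Ctnna1, higher by 0.60, lost its call in 5 of the 6 fits that leave out a library, at 0.43 to 0.62. Of the 5 regions of Ctnna1, 2 were higher, 0 lower and 3 not called. Its summed log2 fold change of 0.98 ± 0.14 was called (edgeR adjusted p = 3.67e-05). All libraries with Nanog lay above all libraries without it in that sum.

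The repressors Zeb1 and Zeb2, which act on the E-cadherin promoter in epithelial-mesenchymal transition, were both higher at their strongest region. That of Zeb1 had 8.02, 11.1 and 10.3 CPM with Nanog and 3.73, 3.65 and 3.53 CPM without Nanog, a log2 fold change of 1.44 ± 0.27 (edgeR adjusted p = 0.000267), 68.4 kb outside the gene. That of Zeb2 had 13.3, 15.4 and 17.7 CPM with Nanog and 7.08, 5.89 and 6.86 CPM without Nanog, a log2 fold change of 1.23 ± 0.22 (edgeR adjusted p = 0.000184), 91.5 kb outside the gene. The lines did not overlap at either region, both of which were in the peak list of the line with Nanog alone. Snai1, another repressor of E-cadherin, had 2 lower regions and 6 not called.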

How the data were processed

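ESRRB ChIP counts of 6 libraries, 3 per line, were analysed; the 6 input libraries were not used here. The deposited table gives raw read counts per region, per the file headers, for the merged regions of 2 deposited peak lists, which hold coordinates without a score. Per the submitters' processing notes, the build was mm10 and the tools were MACS2, Bowtie2, deepTools, bcl2fastq 2.19.1, bedtools 2.26.0 and SAMtools 1.4.1. How reads were counted or filtered is not given there. Columns carry letters that no title gives, so columns were matched to lines only. Same-letter libraries deviated together with r of 0.083, 0.22 and 0.13, each above the range of unlike letters (-0.16 to 0.045). Letters may thus mark libraries handled together, which was not tested. They were not treated as pairs in the main fit because no label ties them to replicate numbers. A fit with a block by letter is among the alternatives below. No 2 libraries were duplicates (chi-square per degree of freedom 1.34 to 2.61).

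Counts were tested with edgeR 4.0.16 in R 4.3.3 (filterByExpr, TMM, glmQLFit, glmQLFTest) over all 84892 regions that passed the filter, with Benjamini-Hochberg adjustment at 0.05. SE is the log2 fold change divided by the root of the F statistic; CPM are TMM-scaled. On simulated counts of the same 84892 regions it found 6 of 67 changes of 1.5-fold, 39 of 67 of 2-fold and 61 of 66 of 4-fold, and called 5 unchanged regions. No other regions were changed there, while 16303 were called in the data. The adjustment thus worked under another setting, and these rates need not hold for the reported fit. Regions were assigned with the RefSeq gene table of GRCm38.p6 (mm10); a region inside several genes belonged to each, and in sums to the gene with the nearest end. Peak overlap needed 1 bp (bedtools 2.31.1).

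Alternatives were DESeq2 1.42.0, other scalings (limma 3.58.1 for loess with a span of 0.3), other filters, distances and ties, each library left out, a block by letter and thinning to equal totals. Named regions were those of Cdh1 and Cdh2, the 10 largest called increases and decreases elsewhere, the 6 strongest regions, the strongest region of genes with 5 or more, summed loci called and listed partner genes; further called regions were picked after their values were seen. Members and lists were chosen with earlier results of these data known.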

Additional observations from a re-analysis of the deposited data

How the results depend on the processing

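All 64 called regions of the family kept their sign in each of the 14 alternatives that tested them, and 41 to 64 of them stayed called, except that 33 of the 33 still tested did so with a mean count of at least 50. Of 33 named regions that were called, 17 stayed called throughout and 16 lost the call at least once; of 34 not called, 5 gained a call and 14 changed sign. Different scaling moved the median of all regions to between -0.016 and 0.027 on the log2 scale. The family's regions had a median count of 39 to 51 in libraries with Nanog and 16 to 31 in those without Nanog, which limits what can be called at weak regions. The cause of each shift was not tested.

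Calls of named results were also lost as follows. With DESeq2 these were Cdh1 106611825, Cdh2 16588614, Cdh9 16629058, Cdh13 118541664, Cdh18 22811910, Pcdh18 49777875, the sums of Cdh2 and Cdh17 and the Ctnna1 region. With the loess offset they were Cdh10 18809174, Cdh20 105012572 and Cdh26 178460465, and with column totals Cdh1 106611825. Thinning ended those of Cdh1 106610865 and 106619396, Cdh9 16629058, Cdh13 118541664, Cdh18 22811910, Cdh19 110977680, Cdh20 105094560, Cdh26 178460465, the sums of Cdh17 and Pcdh19 and the Ctnna1 region.

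Over the family, 19 regions were higher with DESeq2 and 19 after thinning, and 17 were higher and 20 lower with a mean count of at least 50; centres inside the gene left 18 lower. With 50% reciprocal overlap, 23.4% of regions were in both peak lists and 74.9% in that of the line with Nanog alone. At Cdh1, 2 regions were higher with column totals and 2 with the replicate block by letter, 0 were higher and 2 lower after thinning, and leaving out libraries gave 0 to 2 higher. At Cdh2, 2 were higher with DESeq2, 1 with a mean count of at least 50 and 2 after thinning, and 2 to 6 when leaving out libraries. Among summed loci, 7 were lower with the replicate block, and leaving out libraries gave 3 to 6 higher and 3 to 5 lower. For partner genes, DESeq2 called 23 higher and 13 lower, thinning 22 higher and 9 lower, and the filter at 50 gave 20 higher; leaving out libraries gave 23 to 44 higher and 7 to 26 lower. The block changed no other call count beyond 1.5 times.

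Among named regions, the sign changed at uncalled ones, with values of -0.31 to 0.21 in the reported fit. At Cdh1, the log2 fold change after thinning was -0.047 at 106609098, 0.078 at 106614672, 0.052 at 106616650 and 0.014 at 106623794. With the loess offset it was 0.052 at 106614672. At 106617213 it was 0.038 with column totals, 0.035 with loess, 0.00034 with DESeq2 and 0.0074 without a filter. At Cdh5 104051010 it was 0.0012 with DESeq2 size factors, 0.041 with column totals, 0.019 with loess, 0.01 without a filter and 0.00095 with a mean count of at least 50. Leaving out libraries gave, at Cdh1, -0.72 to 0.30 at 106588774, -0.069 to 0.26 at 106609098, -0.26 to 0.084 at 106612305, -0.076 to 0.0097 at 106614672, -0.35 to 0.015 at 106616650, -0.16 to 0.14 at 106617213, -0.31 to 0.086 at 106623048 and -0.36 to 0.19 at 106623794. Elsewhere it gave -0.16 to 1.16 at Cdh2 16614347, -0.27 to 0.13 at Cdh13 118777264, -0.34 to 0.088 at Cdh22 165166403, -0.22 to 0.029 at Cdh23 60480204, -0.16 to 0.13 at Cdh5 104051010, -0.077 to 0.069 at Pcdh8 79773487 and -0.03 to 0.38 at the Afdn region.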
